A study of Mus musculus with 6 samples.

Results

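Transcripts of the TGF-beta ligands, receptors and latent binding proteins were followed in mammary tumors of NeuT/ATTAC mice. The 10 genes were chosen by symbol and not by a threshold on their levels, although earlier results of these data were known. They were the ligands Tgfb1, Tgfb2 and Tgfb3, the receptors Tgfbr1, Tgfbr2 and Tgfbr3, and the latent TGF-beta binding proteins Ltbp1, Ltbp2, Ltbp3 and Ltbp4. They are 10 of the 54532 Ensembl gene IDs measured, and all 10 were among the 15069 genes with a mean of at least 0.5 FPKM that were tested. FPKM counts the fragments of a gene scaled by the length of its exons and the size of the library, so that levels of different genes can be set side by side.

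The samples were 3 libraries from tumors of mice given an isotype-matched IgG and 3 from tumors of mice given an anti-PD-1 monoclonal antibody. Each library is called a tumor here. All mice were of the FVB strain and carried MMTV-NeuT, in which the MMTV promoter drives the Erbb2 oncogene in the mammary gland. They also carried FAT-ATTAC, which was brought in from C57BL/6 mice and lets the drug AP20187 ablate adipocytes, so that fibrosis develops in IgG and anti-PD-1 mice alike. Injections of 0.4 mg/kg AP20187 began at 6 weeks of age in every mouse, at an interval that the sources give differently, and injections of 100 μg of either antibody, 2 times per week, at 8 weeks. The study's methods give 4 months of antibody treatment. According to the study, RNA was pooled within groups, but each tumor has its own values here. No tumors without AP20187 were part of the comparison.

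TGF-beta is made as a precursor whose propeptide stays wrapped around the mature ligand and keeps it latent. A latent binding protein is disulfide-linked to the propeptide and anchors the complex to fibrillin and fibronectin in the matrix, from which integrins, thrombospondin or proteases release the ligand. Active ligand, presented by the coreceptor betaglycan, is bound by the type II receptor, which recruits and phosphorylates the type I receptor, and SMAD proteins carry the signal to the nucleus. In breast tumors the pathway is known for growth arrest of normal epithelium, matrix deposition by fibroblasts and restraint of T cells. Most of this control acts on the protein, which was not measured.

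In the anti-PD-1 tumors Tgfb1 was 1.97-fold higher by the log2 fold change of FPKM + 1, and 2.05-fold by the ratio of mean FPKM. The lowest anti-PD-1 tumor exceeded the highest IgG tumor. Tgfb3 was the most abundant ligand in all 6 tumors and differed little between the groups. The receptor Tgfbr1 and the binding proteins Ltbp1, Ltbp2 and Ltbp4 had lower group means with anti-PD-1, with values that overlapped in each. Small negative differences of Tgfb2, Tgfbr3 and Ltbp3, and the small positive difference of Tgfb3, changed sign under some of the alternatives. That of Tgfbr2 did so only when the median of its chromosome was subtracted, which also took Tgfbr1 from -0.42 to -0.03. None of the 10 genes had an adjusted p under 0.05 in limma (a linear model fitted to all genes, two-sided, Benjamini-Hochberg adjustment), nor had any of the 15069 genes tested (0.0%). At an unadjusted p under 0.05 the count was 1 of the 10 genes, beside 12.3% of all genes. That gene, Tgfb1, was at least 1.5-fold higher, as were 3.9% of all genes, and its groups did not overlap, as in 9.3% of all genes in this direction. None of the 10 was at least 1.5-fold lower at an unadjusted p under 0.05, beside 4.55% of all genes, and none was lower without overlap, beside 8.75%. In all, 2 of the 10 genes had a positive and 8 a negative log2 fold change, whereas 50.8% of all genes were higher and the median over all genes was 0.01.

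The tumors differed in more than their treatment. The reads behind the FPKM values came to between 22009893 and 25596229 per tumor. IgG replicate 1 correlated more closely with the 3 anti-PD-1 tumors (r from 0.951 to 0.958 across genes) than with the other IgG tumors (0.935 and 0.937). As a check of the labelled tissue, luminal epithelial markers were abundant, and summed to between 2208 and 3019 FPKM in IgG and between 3041 and 3986 FPKM in anti-PD-1 tumors, without overlap. Of the 8 luminal markers, 5 were higher and 3 lower with anti-PD-1, from 0.43 for Epcam, higher without overlap, to -2.03 for Krt19, lower without overlap. Skeletal muscle markers summed to 136.4 FPKM in IgG replicate 2, 74.78 in anti-PD-1 replicate 1 and 148.0 in anti-PD-1 replicate 2, and to at most 5.307 in the other tumors. In bulk RNA, fewer cells of a type and less RNA per cell cannot be told apart. The labels do not say whether the tumors of a group came from separate mice, so p-values measure only the spread between these samples.

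Tgfb1 encodes the ligand best known from fibrosis and immune regulation. It lies on chromosome 7 (ENSMUSG00000002603, GRCm38 chr7:25687002-25705077, plus strand) and shares no exon with another annotated gene. Tgfb2 encodes the ligand that depends most on betaglycan for binding to the type II receptor, and lies on chromosome 1 (ENSMUSG00000039239, chr1:186622792-186705989, minus strand). The 250 bases before the RefSeq start of each (GRCm38.p6) are shown because Tgfb1 separated the groups and Tgfb2, at a similar level with IgG, did not. Capitals mark GC boxes (GGGCGG on either strand) and TATA boxes (TATAAA on either strand).

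Tgfb1 promoter, chr7:25686752-25687001, plus strand: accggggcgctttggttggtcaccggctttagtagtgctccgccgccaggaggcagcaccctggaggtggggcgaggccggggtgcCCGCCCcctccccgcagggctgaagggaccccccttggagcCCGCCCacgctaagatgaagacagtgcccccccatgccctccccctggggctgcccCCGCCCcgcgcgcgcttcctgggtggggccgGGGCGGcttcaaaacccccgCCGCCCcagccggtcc

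Tgfb2 promoter, chr1:186705990-186706239, minus strand: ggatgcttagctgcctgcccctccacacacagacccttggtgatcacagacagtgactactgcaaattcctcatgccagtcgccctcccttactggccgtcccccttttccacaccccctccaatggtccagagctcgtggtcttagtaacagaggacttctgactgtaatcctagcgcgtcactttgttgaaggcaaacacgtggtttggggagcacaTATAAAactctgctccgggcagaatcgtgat

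The Tgfb1 window held 5 GC boxes, no TATA box and 75.2% G and C. The Tgfb2 window held 1 TATA box, beginning 31 bases before the start, no GC box and 53.6% G and C. GC boxes occur in 32.7% and TATA boxes in 12.4% of the 32851 mouse promoter windows of this length. Neither window held an AP-1 site (TGANTCA on either strand), which 6.75% of windows hold. SMAD boxes (CAGAC on either strand, not marked above) occur in 42.2% of windows. The Tgfb2 window held 2 of them and the Tgfb1 window none. These matches describe letters in the windows and not bound sites.

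IgG replicates 1 to 3 had a Tgfb1 level of 10.2, 4.851 and 10.32 FPKM. For anti-PD-1 replicates 1 to 3 it was 20.81, 11.52 and 19.71 FPKM. The lowest anti-PD-1 tumor thus lay just above the highest IgG tumor, and IgG replicate 2 lay well below the rest. The means were 8.457 ± 3.123 FPKM (SD, n = 3) with IgG and 17.34 ± 5.079 FPKM (SD, n = 3) with anti-PD-1. The log2 fold change on the log2(FPKM + 1) scale was 0.98 (standard error 0.33, 95% interval 0.21 to 1.76), with an unadjusted p of 0.0199 and an adjusted p of 0.357 from limma. The two-sided exact permutation test of 3 tumors against 3 gave p = 0.1, the smallest value it can give. The difference lay above that of 98.0% of all genes tested.

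Without IgG replicate 2 the log2 fold change of Tgfb1 was 0.66 (unadjusted p = 0.0555 from limma), and leaving out anti-PD-1 replicates 1 or 3 gave 0.83 (0.0665) and 0.88 (0.0626), so that in each of these fits no gene of the 10 was called higher. Without IgG replicate 1, IgG replicate 3 or anti-PD-1 replicate 2 it was 1.13, 1.14 and 1.24. It was higher with anti-PD-1 under all 15 alternatives. The study had named Tgfb1 among the genes higher in these same samples, at 1.5-fold or more and a DESeq2 p under 0.05. It also ran qRT-PCR on the genes of its Wnt network, with primers listed for Tgfb1.

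Markers of other cell types also differed between the tumors. Macrophage markers were higher with anti-PD-1 in 8 of 8 genes, and summed to between 215.1 and 385.5 FPKM in IgG and between 284.2 and 455.7 FPKM in anti-PD-1 tumors. Among them Cd68 had a log2 fold change of 0.76 (unadjusted p = 0.00438, adjusted p = 0.344 from limma), whereas that of Adgre1 was 0.01. Fibroblast markers, higher in 5 of 9 genes, summed to between 72.33 and 189.5 FPKM in IgG and between 73.13 and 267.1 FPKM in anti-PD-1 tumors. By tumor, the fibroblast sum was 189.5, 72.33 and 94.42 FPKM with IgG and 267.1, 73.13 and 159.8 FPKM with anti-PD-1. Its highest value was in the same tumor as that of Tgfb1. Its lowest, in IgG replicate 2 as for Tgfb1, was all but equalled by anti-PD-1 replicate 2. The macrophage sum was 324.5, 385.5 and 215.1 FPKM with IgG and 447.7, 284.2 and 455.7 FPKM with anti-PD-1. It was lowest in IgG replicate 3 and highest in anti-PD-1 replicate 3. Platelet and megakaryocyte markers summed to between 4.118 and 4.307 FPKM in IgG and between 3.533 and 6.272 FPKM in anti-PD-1 tumors, with Gp1bb at 0 in every tumor. None of the 6 T cell markers reached the filter, and their sum was at most 3.347 FPKM. The luminal sum, given above, was also higher in each anti-PD-1 tumor than in any IgG tumor, although 3 of its 8 genes were lower. The part of these cells in the Tgfb1 level was not tested.

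The Tgfb2 level was 11.88, 7.023 and 8.921 FPKM in IgG and 5.438, 9.157 and 9.778 FPKM in anti-PD-1 tumors, in replicate order. The groups overlapped, with IgG replicate 1 highest and anti-PD-1 replicate 1 lowest. The log2 fold change was -0.18 (95% interval -0.80 to 0.44, adjusted p = 0.815 from limma).

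Tgfb3, a ligand prominent in mammary epithelium during involution, lies on chromosome 12 (ENSMUSG00000021253, chr12:86056745-86079041, minus strand). Its level was 113.7, 98.42 and 89.66 FPKM in IgG and 81.35, 122.0 and 115.5 FPKM in anti-PD-1 tumors. The values interleaved, and the lowest and the highest were both from anti-PD-1 tumors. With means of 100.6 ± 12.19 FPKM (SD, n = 3) and 106.3 ± 21.86 FPKM (SD, n = 3), the log2 fold change was 0.07 (95% interval -0.42 to 0.56, adjusted p = 0.913 from limma). The mean level lay above that of 97.4% of the genes tested. Part of its exons, 7.6% and 4.82%, is shared with opposite-strand transcripts that reached no more than 3.0 FPKM. Tgfb3 and Tgfbr3 were not matched in the promoter sequences.

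**Figure D1:**
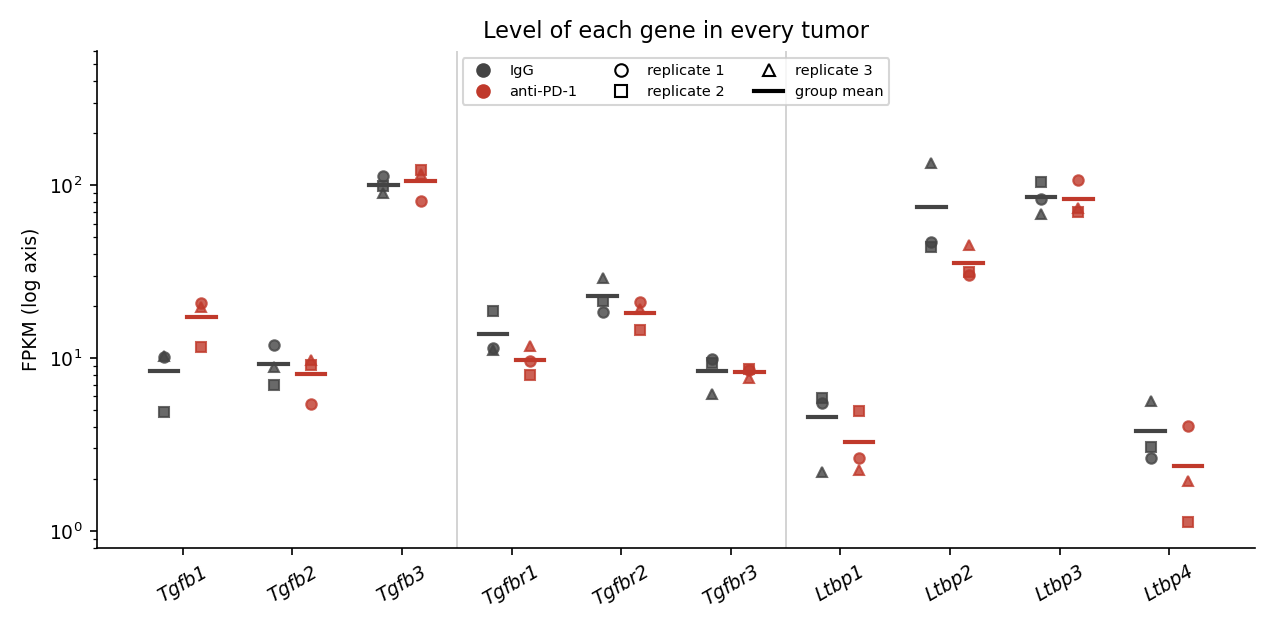
FPKM on a log axis for each of the 10 genes in each of the 6 tumors (grey, IgG; red, anti-PD-1; marker shape, replicate number; bar, group mean). The groups of Tgfb1 do not overlap, those of the other 9 genes do, and IgG replicate 3 lies apart for Ltbp2 at 135.2 FPKM.

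The ligands were far from equally abundant. Tgfb3 made up between 75.6% and 89.2% of the summed FPKM of the ligands. The share of Tgfb1 was 7.51%, 4.4% and 9.48% in the IgG tumors, and 19.3%, 8.07% and 13.6% in the anti-PD-1 tumors, in replicate order. The groups overlapped, since anti-PD-1 replicate 2 lay below IgG replicate 3. The mean share was 7.13% ± 2.56 (SD, n = 3) with IgG and 13.7% ± 5.64 (SD, n = 3) with anti-PD-1 (exact permutation test, p = 0.2). The difference of 6.54 percentage points was 3.7 when anti-PD-1 replicate 1 was left out and 9.34 when anti-PD-1 replicate 2 was. The Tgfb3 level was 11.2, 20.3 and 8.69 times that of Tgfb1 in IgG tumors and 3.91, 10.6 and 5.86 times with anti-PD-1 (p = 0.2 in an exact permutation test of the log2 ratio). The summed level of the ligands was 118.3 ± 15.2 FPKM (SD, n = 3) with IgG and 131.8 ± 21.0 FPKM (SD, n = 3) with anti-PD-1 (exact permutation test, p = 0.4).

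**Figure D2:**
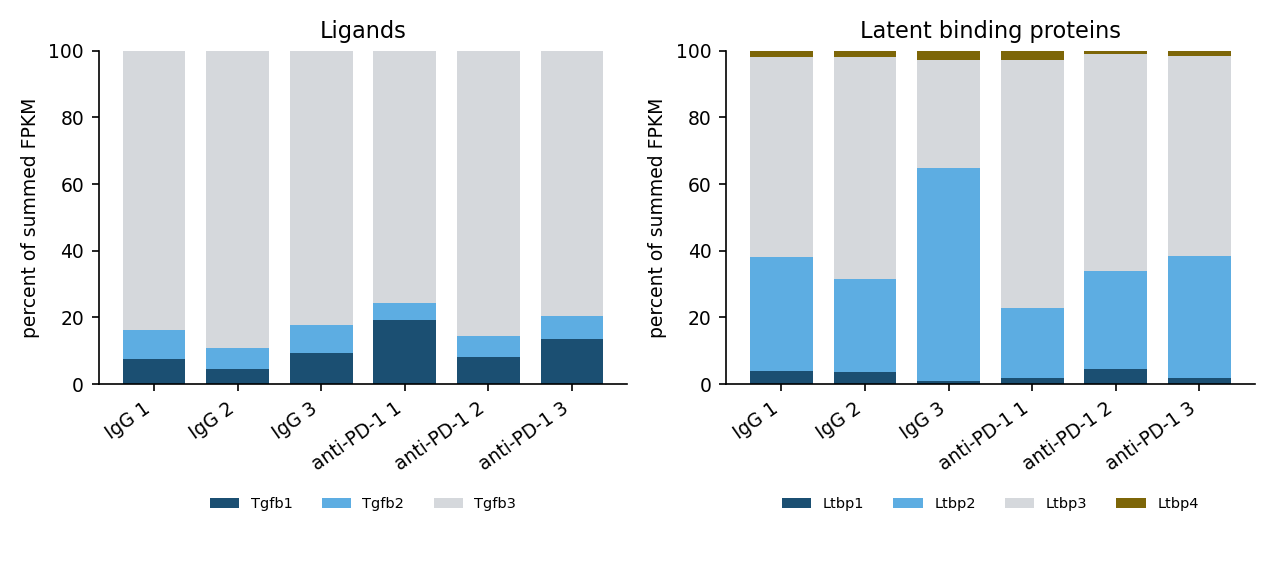
Percent of the summed FPKM taken by each ligand (left) and each latent binding protein (right) in every tumor. Tgfb3 holds at least 75.6% of the ligand sum in each tumor, and Ltbp2 holds 63.9% of the binding protein sum in IgG replicate 3 and at most 36.6% elsewhere.

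Tgfbr1 encodes the type I receptor, the kinase that phosphorylates SMAD2 and SMAD3. It lies on chromosome 4 (ENSMUSG00000007613, chr4:47353222-47414931, plus strand). Its level was 11.39, 18.63 and 11.18 FPKM in IgG and 9.662, 7.958 and 11.72 FPKM in anti-PD-1 tumors. Anti-PD-1 replicate 3 lay above 2 of the 3 IgG tumors, and IgG replicate 2 stood above all others. On the log2 scale the difference was -0.42 (standard error 0.24, 95% interval -0.99 to 0.14, adjusted p = 0.5 from limma), and it was -0.21 when IgG replicate 2 was left out.

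Tgfbr2 encodes the type II receptor, the kinase that binds the ligand before the type I receptor does. It lies on chromosome 9 (ENSMUSG00000032440, chr9:116084293-116175360, minus strand). Its level was 18.45, 21.34 and 29.07 FPKM in IgG and 21.24, 14.44 and 19.35 FPKM in anti-PD-1 tumors. The groups overlapped, since IgG replicate 1 lay below 2 anti-PD-1 tumors. This gave -0.30 on the log2 scale (standard error 0.22, 95% interval -0.82 to 0.23, adjusted p = 0.613 from limma), which became -0.12 when IgG replicate 3 and -0.14 when anti-PD-1 replicate 2 was left out.

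Tgfbr3 encodes betaglycan, the coreceptor without kinase activity, and lies on chromosome 5 (ENSMUSG00000029287, chr5:107106570-107289629, minus strand). Its level was 9.843, 9.346 and 6.191 FPKM in IgG and 8.566, 8.594 and 7.667 FPKM in anti-PD-1 tumors. The anti-PD-1 tumors all fell within the IgG range. The log2 fold change was -0.00 (95% interval -0.46 to 0.46, adjusted p = 0.997 from limma).

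The summed level of the receptors was 39.68, 49.31 and 46.44 FPKM in IgG and 39.47, 30.99 and 38.74 FPKM in anti-PD-1 tumors. These sums did not overlap, but the gap between anti-PD-1 replicate 1 and IgG replicate 1 was small (exact permutation test, p = 0.1). The sum was formed after the values were seen. The ratio of Tgfbr1 to Tgfbr2 was 0.617, 0.873 and 0.385 in IgG tumors and 0.455, 0.551 and 0.606 in anti-PD-1 tumors. The type I receptor transcript was thus below the type II receptor transcript in every tumor, and the log2 ratios overlapped between the groups (exact permutation test, p = 0.7).

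Both signaling receptors lie on chromosomes whose genes were lower as a whole with anti-PD-1. The median log2 fold change was -0.40 over the 926 tested genes of chromosome 4, of which 83.6% were lower, and -0.36 over the 798 of chromosome 9, of which 82.3% were lower. With the chromosome's median subtracted in each tumor, the log2 fold change of Tgfbr1 was -0.03 and that of Tgfbr2 was 0.06. In single tumors the receptors departed from these medians. Tgfbr1 was at -0.03 in IgG replicate 3, where the median of chromosome 4 was 0.31, and at 0.04 in anti-PD-1 replicate 3, where it was -0.24. Tgfbr2 was at 0.07 in IgG replicate 2, where the median of chromosome 9 was 0.31. Within its chromosome, Tgfbr1 lay above 47.1% and Tgfbr2 above 57.3% of the genes. The chromosome medians were low in IgG replicate 1 as well, at -0.09 for chromosome 4 and -0.13 for chromosome 9 relative to the mean of the tumors, against 0.35 and 0.31 in IgG replicate 2 and 0.31 and 0.32 in IgG replicate 3. Whether copy number differed between the tumors was not tested. For the other 8 genes the chromosome median lay between 0.01 and 0.08, and Tgfb1 kept 0.90 after subtraction.

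**Figure D3:**
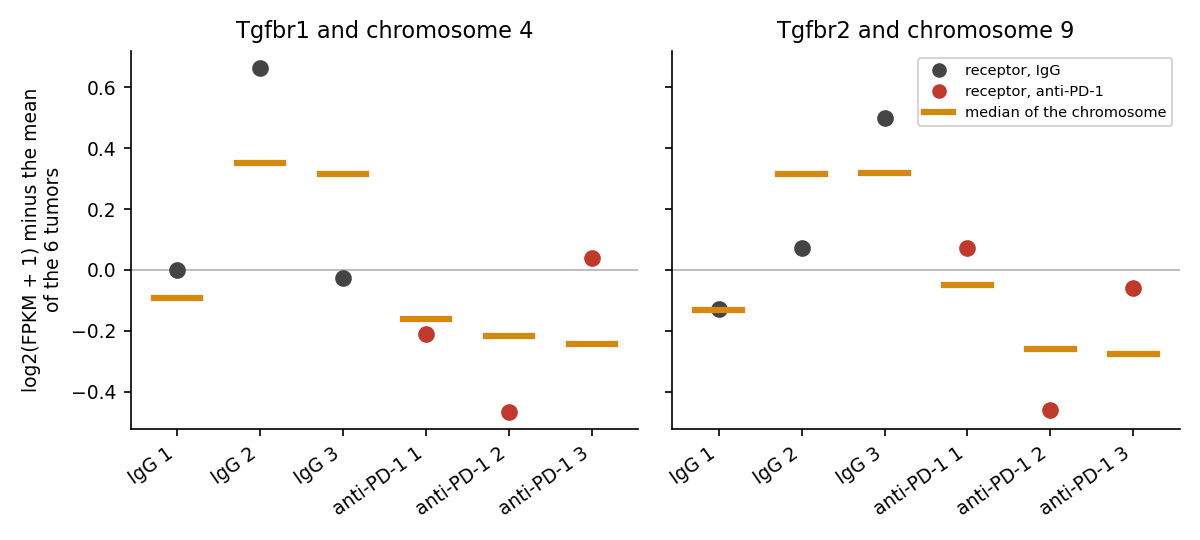
Level of Tgfbr1 (left) and Tgfbr2 (right) in each tumor as log2(FPKM + 1) minus the mean of the 6 tumors, with the median of the same quantity over the tested genes of chromosome 4 or chromosome 9 (orange bars). The chromosome medians lie below 0 in IgG replicate 1 and in all anti-PD-1 tumors, and at 0.31 or above in IgG replicates 2 and 3.

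The latent binding proteins fell into an abundant and a scarce pair. Ltbp3, which binds latent TGF-beta and is known from skeletal growth, lies on chromosome 19 (ENSMUSG00000024940, chr19:5740904-5758532, plus strand). Its level was 82.75, 104.2 and 68.6 FPKM in IgG and 107.1, 69.59 and 73.38 FPKM in anti-PD-1 tumors. The groups overlapped across nearly their whole range, with a log2 fold change of -0.03 (95% interval -0.59 to 0.53, adjusted p = 0.968 from limma).

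Ltbp2 is the family member that does not bind latent TGF-beta and is known as a component of elastic and ciliary fibers. It lies on chromosome 12 (ENSMUSG00000002020, chr12:84783212-84876532, minus strand). Its level was 46.89, 43.63 and 135.2 FPKM in IgG and 30.06, 31.29 and 44.85 FPKM in anti-PD-1 tumors. IgG replicate 3 stood far above every other tumor, and anti-PD-1 replicate 3 lay between the other IgG tumors. The means were 75.22 ± 51.92 FPKM (SD, n = 3) and 35.4 ± 8.204 FPKM (SD, n = 3). The log2 fold change was -0.88 (standard error 0.43, 95% interval -1.89 to 0.13), the largest negative difference among the 10 genes, with an adjusted p of 0.443 from limma and an exact permutation p of 0.2. Only 2.62% of all genes tested had a more negative value. Without IgG replicate 3 it was -0.36, and without IgG replicate 2 it was -1.18 at an unadjusted p of 0.0387 from limma. Of its exons, 9.34% is shared with the antisense gene D030025P21Rik, which reached at most 2.07 FPKM.

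Ltbp1, the binding protein best known for anchoring latent TGF-beta1, lies on chromosome 17 (ENSMUSG00000001870, chr17:75005568-75392512, plus strand). Its level was 5.51, 5.9 and 2.193 FPKM in IgG and 2.654, 4.918 and 2.242 FPKM in anti-PD-1 tumors. High and low tumors occurred in both groups, and the log2 fold change was -0.34 (95% interval -1.19 to 0.51, adjusted p = 0.727 from limma). With 1 tumor left out it ran from -0.15 (IgG replicate 2) to -0.70 (IgG replicate 3).

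Ltbp4, which binds latent TGF-beta1 and takes part in elastic fiber assembly, lies on chromosome 7 (ENSMUSG00000040488, chr7:27305136-27337692, minus strand). Its level was 2.636, 3.043 and 5.648 FPKM in IgG and 4.032, 1.123 and 1.935 FPKM in anti-PD-1 tumors. Anti-PD-1 replicate 1 lay above 2 IgG tumors, and the log2 fold change was -0.54 (95% interval -1.41 to 0.32, adjusted p = 0.575 from limma). Without anti-PD-1 replicate 1 it was -0.88 at an unadjusted p of 0.0345, and leaving out anti-PD-1 replicate 2 instead gave -0.25. With 176 to 891 reads per tumor, Ltbp4 rested on the fewest reads among genes with whole reads.

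Ltbp3 made up 53.0% ± 18.1 (SD, n = 3) of the summed FPKM of the binding proteins with IgG and 66.5% ± 7.36 (SD, n = 3) with anti-PD-1. Ltbp2 made up 41.9% ± 19.3 (SD, n = 3) and 28.9% ± 7.88 (SD, n = 3). Both differences gave p = 0.5 in the exact permutation test (0.667 adjusted over the 4 genes). Leaving out IgG replicate 3 took the difference from 13.5 to 3.24 percentage points for Ltbp3 and from -13.0 to -2.0 for Ltbp2. Ltbp1 took at most 4.6% of the sum in any tumor and Ltbp4 at most 2.8%.

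Some of these genes are neighbors. Tgfb1 and Ltbp4 lie 1.6 Mb apart on chromosome 7, with log2 fold changes of 0.98 and -0.54, and the 14 tested genes between them had a median of 0.11. Tgfb3 and Ltbp2 lie 1.18 Mb apart on chromosome 12, with log2 fold changes of 0.07 and -0.88, and the 20 tested genes between them had a median of 0.01.

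**Figure D4:**
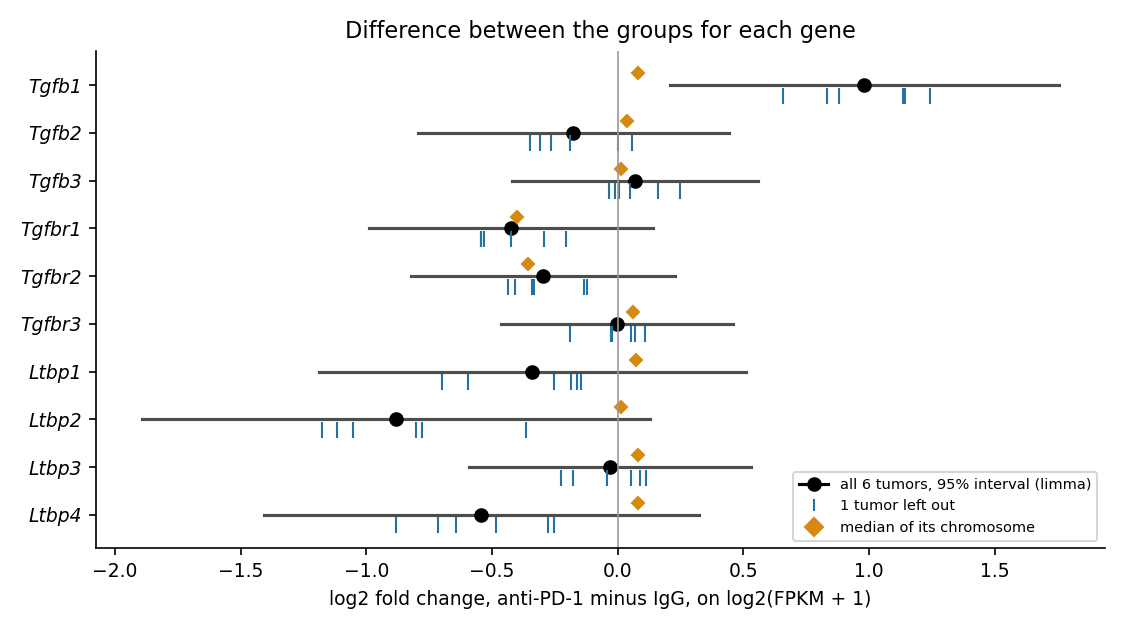
Log2 fold change of each gene, anti-PD-1 minus IgG, with its 95% interval from limma (black), the values with 1 tumor left out (blue ticks) and the median of the tested genes on its chromosome (orange). The interval of Tgfb1 runs from 0.21 to 1.76, those of the other 9 genes include 0, and Tgfbr1 and Tgfbr2 lie close to their chromosome medians.

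Ordered by mean level, the IgG tumors ran Tgfb3, Ltbp3, Ltbp2, Tgfbr2, Tgfbr1, Tgfb2, Tgfbr3, Tgfb1, Ltbp1 and Ltbp4. Of the neighbors in this order, only Ltbp2 and Tgfbr2 had ranges that did not overlap. In the anti-PD-1 tumors the order was Tgfb3, Ltbp3, Ltbp2, Tgfbr2, Tgfb1, Tgfbr1, Tgfbr3, Tgfb2, Ltbp1 and Ltbp4. There the ranges did not overlap between Ltbp3 and Ltbp2, between Ltbp2 and Tgfbr2, and between Tgfb2 and Ltbp1. Tgfb1 thus stood at place 8 with IgG and at place 5 with anti-PD-1, but its range overlapped those of its neighbors in both orders. With IgG its mean of 8.457 FPKM all but equalled that of Tgfbr3, 8.46 FPKM.

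Genes whose pattern over the 6 tumors lay closest were sought among 7966 genes with a mean of at least 5 FPKM, by the root mean square difference of mean-centred log2(FPKM + 1) values. For Tgfb1 they were Cmip (0.162), Serpinf1 (0.17) and Syngr1 (0.212), where the median gene differed by 0.67. Serpinf1 encodes pigment epithelium-derived factor, a secreted serpin. Its level was 10.3, 3.51 and 7.62 FPKM in IgG and 18.9, 8.29 and 18.4 FPKM in anti-PD-1 tumors, highest in anti-PD-1 replicate 1 and lowest in IgG replicate 2 as for Tgfb1. For Tgfbr1 they were 2010320M18Rik (0.0993), Cobl (0.109) and Sept8 (0.111), none of them on chromosome 4. For Tgfbr2 they were Plekhm2 (0.0564), which lies on chromosome 4, Pygb (0.0599) and Pxylp1 (0.0631), which lies on chromosome 9. With 6 tumors, such likeness is a description only.

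The rest of the pathway was read from 5 lists with 80 genes, of which 76 were tested. Of these, 11 had an unadjusted p under 0.05 (14.5%, beside 12.3% of all genes), and 5 were at least 1.5-fold higher (6.58%, beside 3.9%) and 4 lower (5.26%, beside 4.55%). Groups did not overlap for 5 higher genes (6.58%, beside 9.3% of all genes) and 5 lower genes (6.58%, beside 8.75%), so these shares lay below those of all genes. None had an adjusted p under 0.05, and no list was tested as a whole. With 1 tumor left out, only Ldlrad4, Zfyve9, Cdkn2b and Bhlhe40 of the 11 kept an unadjusted p under 0.05 in all 6 fits.

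Among genes that release or anchor latent TGF-beta, 12 of 19 were higher and 7 lower, with a median log2 fold change of 0.09 that ran from -0.06 without anti-PD-1 replicate 3 to 0.29 without anti-PD-1 replicate 2. Bmp1, a protease that cleaves procollagen and latent binding proteins, was at 14.3, 4.9 and 4.56 FPKM in IgG and 21.5, 11.8 and 13.9 FPKM in anti-PD-1 tumors. The groups overlapped through IgG replicate 1 (log2 fold change 1.04, unadjusted p = 0.0413, adjusted p = 0.395 from limma), and the unadjusted p reached 0.131 with 1 tumor left out. The study had named Bmp1 among genes higher in these tumors, and listed qRT-PCR primers for it as well. The most abundant were Itgb1, the integrin beta1 chain, with a log2 fold change of -0.17, the activator thrombospondin Thbs1 with -0.31, the integrin chain Itgb5 with 0.09 and the crosslinking enzyme Tgm2 with 0.42. Itgb6, the beta chain of an activating integrin, was named after its values were seen: at 3.02, 3.02 and 2.73 FPKM in IgG and 1.42, 2.67 and 1.52 FPKM in anti-PD-1 tumors it was lower without overlap (log2 fold change -0.47, unadjusted p = 0.0582 from limma).

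Among 8 coreceptors and membrane modulators, 4 were higher and 4 lower. At an unadjusted p under 0.05 from limma and at least 1.5-fold, 2 were lower (Ldlrad4 and Pmepa1) and 0 higher. The shares over all genes were 4.55% lower and 3.9% higher. Ldlrad4 and Pmepa1 are related membrane proteins that keep SMADs from the activated receptor, and both are induced by TGF-beta. Ldlrad4 was at 10.8, 16.8 and 21.7 FPKM in IgG and 8.43, 5.26 and 5.57 FPKM in anti-PD-1 tumors (log2 fold change -1.20, unadjusted p = 0.00349, adjusted p = 0.344 from limma). Pmepa1 was at 70.2, 89.3 and 115 FPKM in IgG and 67.0, 50.7 and 38.0 FPKM in anti-PD-1 tumors (log2 fold change -0.81, unadjusted p = 0.0184, adjusted p = 0.355 from limma). Neither gene's groups overlapped. With 1 tumor left out, the unadjusted p of Ldlrad4 was at most 0.0147 and that of Pmepa1 at most 0.0683.

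Among 18 SMADs and nuclear regulators, 5 were higher and 13 lower. Ski, a corepressor of SMADs, and Zfyve9, the SMAD anchor of endosomes, had log2 fold changes of -0.78 (unadjusted p = 0.022 from limma) and -0.66 (0.0109). Both lie on chromosome 4, whose median was -0.40. Rnf111, a ubiquitin ligase that removes SMAD inhibitors, had a log2 fold change of -0.51 (unadjusted p = 0.0434 from limma) and lies on chromosome 9, whose median was -0.36. All 3 had adjusted p-values of at least 0.345, and with 1 tumor left out the unadjusted p reached 0.0721 for Ski, 0.136 for Rnf111 and 0.0396 for Zfyve9. Smad7, the inhibitory SMAD, was named after its values were seen because it was higher without overlap, with a log2 fold change of 0.25 (unadjusted p = 0.134 from limma).

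Among 23 tested genes that TGF-beta induces in many cells, 18 were higher and 5 lower, with a median log2 fold change of 0.50 beside 0.01 over all genes. That median was 0.24 without IgG replicate 2, 0.29 without anti-PD-1 replicate 1 and 0.80 without IgG replicate 1. Ldlrad4 and Pmepa1, also induced by TGF-beta but kept with the membrane modulators, were lower as given above. The list holds Ccn2, which the study had picked from these samples. Their medians in single tumors, relative to the mean of the tumors, were 0.18, -0.56 and -0.49 with IgG and 0.55, -0.41 and 0.43 with anti-PD-1, in replicate order. IgG replicate 1 thus lay with anti-PD-1 replicates 1 and 3, and anti-PD-1 replicate 2 with the other IgG tumors. Of the 9 fibroblast markers, Col1a1 and Col1a2 are in this list and Dcn is in that of the soluble binding proteins. The other 6 summed to 37.8, 28.66 and 30.42 FPKM in IgG and 62.27, 18.5 and 32.38 FPKM in anti-PD-1 tumors, and their part in the list was not tested.

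The inhibitors of cyclin-dependent kinases Cdkn2b and Cdkn1a led that list. Cdkn2b was at 8.73, 6.74 and 2.06 FPKM in IgG and 14.4, 14.4 and 16.7 FPKM in anti-PD-1 tumors. It was higher without overlap (log2 fold change 1.40, unadjusted p = 0.0101, adjusted p = 0.344 from limma), although it lies on chromosome 4. Cdkn1a, which p53 also induces, was at 40.2, 6.84 and 5.94 FPKM in IgG and 36.4, 60.3 and 149 FPKM in anti-PD-1 tumors. IgG replicate 1 fell among the anti-PD-1 tumors (log2 fold change 2.43, unadjusted p = 0.0152, adjusted p = 0.355 from limma), and with 1 tumor left out the unadjusted p reached 0.0562. Bhlhe40, a transcriptional repressor, was at 56.9, 36.7 and 34.8 FPKM in IgG and 63.5, 78.3 and 79.6 FPKM in anti-PD-1 tumors, without overlap (log2 fold change 0.80, unadjusted p = 0.00855, adjusted p = 0.344 from limma).

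The collagens of the same list did not separate. Col1a1 was at 94.2, 17.5 and 34.5 FPKM in IgG and 124, 31.8 and 72.1 FPKM in anti-PD-1 tumors, a log2 fold change of 0.76 (limma adjusted p = 0.666). The log2 fold change was 0.77 for Col3a1 (limma adjusted p = 0.588) and 0.44 for the immediate early factor Junb (0.5). Tgfbi, named after its values were seen, was higher without overlap with a log2 fold change of 0.50 (unadjusted p = 0.0863 from limma).

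Among 8 tested soluble TGF-beta binding proteins, 7 were higher and 1 lower, with a median log2 fold change of 0.44. Leaving out IgG replicate 2 gave 0.29, and leaving out IgG replicate 1 gave 0.65. The study had picked Bgn, a proteoglycan of this list, from these samples. Fmod, the proteoglycan fibromodulin, was at 1.77, 0.655 and 1.18 FPKM in IgG and 3.11, 1.6 and 3.68 FPKM in anti-PD-1 tumors, with overlap (log2 fold change 0.78, unadjusted p = 0.0336, adjusted p = 0.38 from limma), and with 1 tumor left out the unadjusted p reached 0.113. Vasn, the membrane-shed inhibitor vasorin, was at 14.5, 14.5 and 14.6 FPKM in IgG and 21.6, 18.8 and 19.5 FPKM in anti-PD-1 tumors. Its groups did not overlap, but the difference was below 1.5-fold (log2 fold change 0.44, unadjusted p = 0.0151, adjusted p = 0.355 from limma), and with 1 tumor left out the unadjusted p reached 0.0538.

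**Figure D5:**
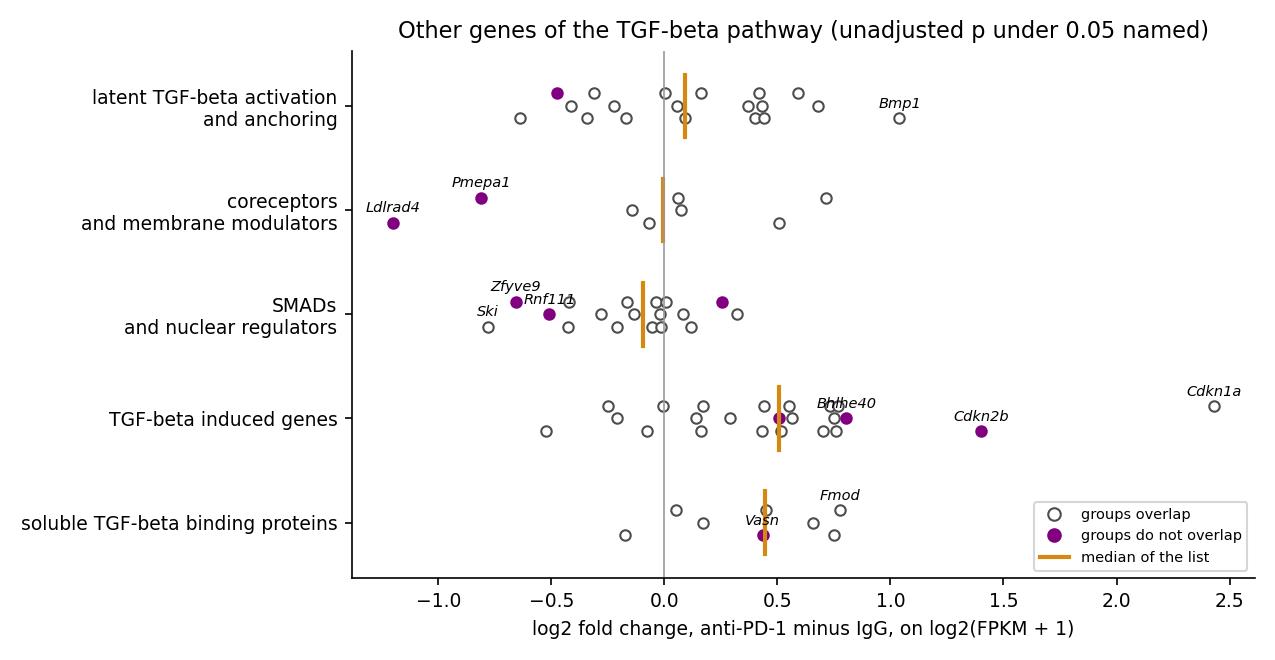
Log2 fold change, anti-PD-1 minus IgG, of each tested gene of the 5 pathway lists (filled, groups do not overlap; open, groups overlap; orange bar, median of the list), with genes at an unadjusted p under 0.05 named. The medians run from -0.10 for the SMADs and nuclear regulators to 0.50 for the TGF-beta induced genes, and no named gene has an adjusted p under 0.05.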

How the data were processed

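The authors' notes name FastQC 0.11.9, cutadapt 3.5, Bowtie2 2.4.1, RSEM 1.3.1 and, for testing, the authors' DESeq2 1.36.0 in R 4.1 on mm10. The deposited values are FPKM per Ensembl gene ID and tumor, and how the authors made the FPKM from their counts is not given in the sources used here. Whether the libraries kept strand is not given either, so reads of genes and opposite-strand partners cannot be told apart.

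IDs were matched to GENCODE M21 (GRCm38), and 54409 of 54532 matched. FPKM times merged exon length gave whole reads (within 0.1) for 27844 of the 28732 IDs above 0, but not for Ltbp1 and Ltbp3, whose reads were rounded estimates. Values were divided by median-of-ratios factors (0.9957 to 1.0029), 1 was added and log2 taken, and limma 3.58.1 (R 4.3.3) was run on genes with a mean of at least 0.5 FPKM (lmFit, eBayes with trend, Benjamini-Hochberg). Since the values are FPKM, the count test of the study's methods was not used. Fold changes of low genes are understated on the log2(FPKM + 1) scale. At this depth 3 reads on 2 kb of exons are 0.0586 to 0.0682 FPKM. The steps were tested on simulated data.

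The genes, lists and tests were chosen with earlier results of these data known. Named were the 10 genes, up to 4 genes of each pathway list at an unadjusted p under 0.05, list genes at 50 FPKM or more, and the 3 genes closest in pattern to Tgfb1, Tgfbr1, Tgfbr2 and the gene with the largest change. Alternatives were a pseudocount of 0.1, no filter, a minimum of 2 FPKM, FPKM as deposited, quantile normalization, eBayes without trend, a replicate block, voom on recovered reads, subtraction of the chromosome median, shares of reads and each tumor left out. Promoter windows came from RefSeq (8 of the 10 genes matched). Python 3.11.15, pandas 2.3.3 and matplotlib 3.10.9 were used otherwise.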

Additional observations from a re-analysis of the deposited data

How the results depend on the processing

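Of 351 alternative values, 29 had the other sign than the value reported, 8 of them list medians. Tgfb1 stayed positive, and Tgfbr1, Ltbp1, Ltbp2 and Ltbp4 stayed negative, under all 15 alternatives each. Tgfbr1 did so by only -0.0259 with the chromosome median subtracted. With a replicate block, which the labels do not say is a pairing (the deviations of same-numbered tumors from their group means correlated at -0.16, 0.01 and 0.19), 1 of the 10 genes was lower past an unadjusted p under 0.05 and 1.5-fold (Ltbp2, 0.0178), and the unadjusted p of Tgfb1 was 0.00136. Leaving out 1 tumor gave 0 to 1 of the 10 genes higher and 0 to 1 lower. Over all genes it gave 370 to 1000 higher and 388 to 1244 lower, lowest without IgG replicate 2 and highest without IgG replicate 1. The count at an adjusted p under 0.05 was 0 to 12 (12 without IgG replicate 1, 1 without IgG replicate 3 or anti-PD-1 replicate 2) and 1 with voom on recovered reads (Fetub, named after its value was seen). Signs changed for genes with small differences. With 1 tumor left out the log2 fold change ran from -0.3476 to 0.0569 for Tgfb2, from -0.0346 to 0.2475 for Tgfb3, from -0.19 to 0.11 for Tgfbr3 and from -0.23 to 0.11 for Ltbp3. Quantile normalization gave -0.085 for Tgfb3 and 0.0198 for Tgfbr3. For Tgfbr3, a pseudocount of 0.1 gave 0.0003 and voom 0.0036. Subtracting the chromosome median gave 0.0644 for Tgfbr2, the only alternative under which its sign changed. With 1 tumor left out, the difference in share ran from -1.12 to 0.358 points for Ltbp1 and from -0.859 to 0.0169 points for Ltbp4, and the log2 ratio of Tgfbr1 to Tgfbr2 from -0.46 to 0.131. List medians ran, over the same fits, from -0.06 to 0.29 for activation and anchoring, from -0.11 to 0.11 for coreceptors and membrane modulators, from -0.17 to -0.06 for SMADs and nuclear regulators, from 0.24 to 0.80 for induced genes and from 0.29 to 0.65 for soluble binding proteins. The coreceptor median was 0.06 with a minimum of 2 FPKM and 0.02 with quantile normalization. The cause of these moves was not tested.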
